A study of Mus musculus with 9 samples.

Results

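The genes followed here belong to fatty acid oxidation and the fasting response in mouse aorta: Acadm, Acadl, Acadvl, Hadha, Hadhb, Cpt1a, Cpt2, Pdk4, Angptl4 and Ucp3. They were taken by name, and each was read from the probe sets that the platform annotation pairs with that gene alone. All 10 genes, of 18193 on the array, had such a probe set, and together they had 18. Where a gene had several, the one with the highest mean over the 9 arrays was its main probe set, and all 10 main probe sets lay above 3.19, the median of all probe sets.

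Transcripts were measured on Affymetrix mouse arrays, 1 array per sample, in aortas of male mice. The 5 arrays F01, F04, F07, F09 and F10 are labelled as BMAL+/+ mice, and the 4 arrays F02, F03, F05 and F08 as BMAL-/- mice, in which Arntl, the gene of the clock transcription factor BMAL1, is disrupted. BMAL+/+ and BMAL-/- stand for these labels throughout. Both genotypes were only partially backcrossed onto C57Bl/6J, so their genetic background is mixed, and ages and feeding state are not given in the sources used here. All mice had at least 2 weeks of 12 h of light and 12 h of darkness, then at least 30 h without light, and were perfused and dissected at ZT14, which is 2 h after the usual onset of darkness. The source name of F01 gives the other genotype than its title and strain; it was kept with BMAL+/+.

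Mitochondrial beta-oxidation shortens fatty acids by repeated cycles and feeds the respiratory chain. Long-chain acyl groups enter mitochondria through the carnitine shuttle, acyl-CoA dehydrogenases of different chain-length preference start each cycle, and the trifunctional protein completes it for long chains. In fasting, PPAR transcription factors raise many of these enzymes together with Pdk4, which holds back glucose oxidation, and Angptl4, which restrains the release of fatty acids from lipoproteins. In mice, the fat around the thoracic aorta resembles brown fat, a tissue rich in these enzymes.

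Values are deposited log2 expression, on which 1 unit is a 2-fold difference, and the array medians lay between 3.13 and 3.24. Smooth muscle markers were abundant on all arrays, with Acta2 at 13.99 to 14.37. Fat markers were as well, with Ucp1, the heat-producing uncoupling protein of brown fat, at 13.10 to 14.68 and Adipoq, an adipocyte hormone, at 12.27 to 14.01. The 13 skeletal muscle markers had a mean between 4.17 on F01 and 10.94 on F07. In such bulk tissue, fewer cells of a type and less RNA per cell cannot be told apart. The signal of Arntl ran against the labels. It was 2.76 in F01, 6.67 in F04, 2.79 in F07, 2.82 in F09 and 2.74 in F10, all labelled BMAL+/+, and 5.87 in F02, 6.22 in F03, 2.77 in F05 and 6.05 in F08, all labelled BMAL-/-. So the targeted gene was near the floor on most arrays labelled BMAL+/+ and well above it on most labelled BMAL-/-. As labelled the difference was 1.67 ± 1.02 (SE; limma adjusted p = 0.386). Without F04 and F05 it was 3.27, but these arrays were left out for their clock genes, so that value is no test of Arntl. Which part of Arntl the probe set covers relative to the disrupted part is not given in the sources. Its signal therefore does not settle the genotypes, and every direction below holds for the labels only. Of the other listed clock genes, Npas2, Clock and Cry1 were higher in BMAL-/- as labelled, by 2.59, 0.52 and 1.19. The rest were lower, among them Nr1d2, Dbp and Per3, with differences of -3.13, -1.91 and -1.84. None of these passed as labelled. At clock genes, F04 and F05 stood with the genotype they are not labelled with: Npas2, a relative of Clock, was at 8.36 in F04, where the remaining BMAL+/+ arrays had 3.37 to 3.40. In F05 it was at 3.40, where the remaining BMAL-/- arrays had 7.90 to 8.52. Every comparison was therefore made over the 9 arrays as labelled and again over the 7 arrays without these, with 4 BMAL+/+ and 3 BMAL-/-. The labels call the samples biological replicates.

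Promoter sequence shows how some of these genes are placed relative to each other. Windows from 250 bases before to 50 bases after the start site were available from RefSeq (GRCm38.p6) for 9 of the 10 genes, not for Angptl4. Hadha and Hadhb, which encode the alpha and beta subunits of the trifunctional protein, are neighbours on opposite strands whose starts lie 273 bases apart, so that their windows overlap. The stretch both windows hold is shown because the pair encodes 1 enzyme complex; it is chr5:30155003-30155230, plus strand (the strand of Hadhb), with its match to GGGCGG (GC box) in capitals.
Hadha and Hadhb: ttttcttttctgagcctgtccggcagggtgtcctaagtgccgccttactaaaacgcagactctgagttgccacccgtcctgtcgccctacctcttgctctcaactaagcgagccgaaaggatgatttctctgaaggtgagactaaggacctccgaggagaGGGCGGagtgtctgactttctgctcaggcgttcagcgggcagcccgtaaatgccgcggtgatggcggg

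The hexamer AGGTCA, to which PPARs and other nuclear receptors bind in pairs, was searched on both strands. It was present in 4 of the 9 windows, those of Acadm, Acadvl, Cpt1a and Ucp3, and in 16.3% of all 32851 windows of this length. These 4 windows are shown with the hexamer, or its reverse complement TGACCT, in capitals, each on its gene's own strand. They lie at chr3:153944594-153944893 (minus strand, Acadm), chr11:70015379-70015678 (minus strand, Acadvl), chr19:3323051-3323350 (plus strand, Cpt1a) and chr7:100472741-100473040 (plus strand, Ucp3).
Acadm: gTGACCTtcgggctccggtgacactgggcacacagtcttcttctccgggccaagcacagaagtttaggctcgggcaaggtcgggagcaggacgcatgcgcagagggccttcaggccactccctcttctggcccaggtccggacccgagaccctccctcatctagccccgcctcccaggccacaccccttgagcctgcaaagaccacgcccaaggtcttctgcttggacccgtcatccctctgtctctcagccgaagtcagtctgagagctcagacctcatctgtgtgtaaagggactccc
Acadvl: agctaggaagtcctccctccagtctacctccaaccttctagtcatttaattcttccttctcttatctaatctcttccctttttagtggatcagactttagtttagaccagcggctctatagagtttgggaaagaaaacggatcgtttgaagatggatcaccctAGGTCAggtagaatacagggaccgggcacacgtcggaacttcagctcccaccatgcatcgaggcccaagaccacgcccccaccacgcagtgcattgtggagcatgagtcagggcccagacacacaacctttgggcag
Cpt1a: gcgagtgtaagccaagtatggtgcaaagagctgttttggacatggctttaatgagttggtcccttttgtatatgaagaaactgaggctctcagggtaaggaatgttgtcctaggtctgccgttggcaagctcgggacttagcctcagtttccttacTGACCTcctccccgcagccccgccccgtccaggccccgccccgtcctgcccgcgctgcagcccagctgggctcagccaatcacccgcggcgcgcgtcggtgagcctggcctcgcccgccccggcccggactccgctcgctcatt
Ucp3: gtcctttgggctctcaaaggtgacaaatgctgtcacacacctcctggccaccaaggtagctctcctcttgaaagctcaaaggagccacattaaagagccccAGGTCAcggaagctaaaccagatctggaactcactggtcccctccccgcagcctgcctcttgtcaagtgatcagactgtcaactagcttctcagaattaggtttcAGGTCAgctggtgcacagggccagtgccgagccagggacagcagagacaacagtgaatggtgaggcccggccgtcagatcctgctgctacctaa

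Ucp3 held the hexamer 2 times, starting at positions -149 and -44 from its start site, in the same orientation. In Acadvl it started at -87, and in Acadm and Cpt1a the reverse complement started at -249 and -94. The direct repeat of the hexamer with 1 base between (DR1), the preferred site of PPARs, was in none of the 9 windows and in 0.0396% of all windows. The E-box CACGTG, which BMAL1 binds with its partners, was also in none of the 9, against 7.15% of all windows. So were the D-box TTATGNAA (3.39% of all windows) and the glucocorticoid element (0.475%). The CRE core TGACG was in the windows of Acadm and Ucp3 (20.8% of all), and GGGCGG in those of Acadl, Cpt2, Hadha, Hadhb and Cpt1a (35.7% of all). These letters were searched in 300 bases only, and a match is a description of sequence, not a measured site.

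None of the 10 genes passed the test of genotype, in either set of arrays. In limma, 0 of 10 had an adjusted p under 0.05 as labelled, where 0% of the 18193 main probe sets passed, and 0 of 10 without F04 and F05, where 0.0165% passed. The F-test of the design text also gave 0 of 10 in both. At an unadjusted p under 0.05 there was 1 of 10 as labelled, Angptl4, where 7.25% of all genes and 2.33% of the genes above the median brightness reached it, and 2 of 10 without F04 and F05, Pdk4 and Angptl4, where 22.3% and 14.7% did. The groups overlapped at all 10, whereas they did not at 0.726% of genes as labelled and 17.5% without F04 and F05. The median difference, BMAL-/- minus BMAL+/+, was -0.11 over the 10 genes as labelled and -0.07 without F04 and F05, beside 0.03 and 0.04 over all genes. With array weights the median over the 10 genes turned to 0.016 and 0.045, and with 1 array left out it ran from -0.28 to -0.033 as labelled and from -0.24 to 0.12 in the 7 arrays.

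**Figure D1:**
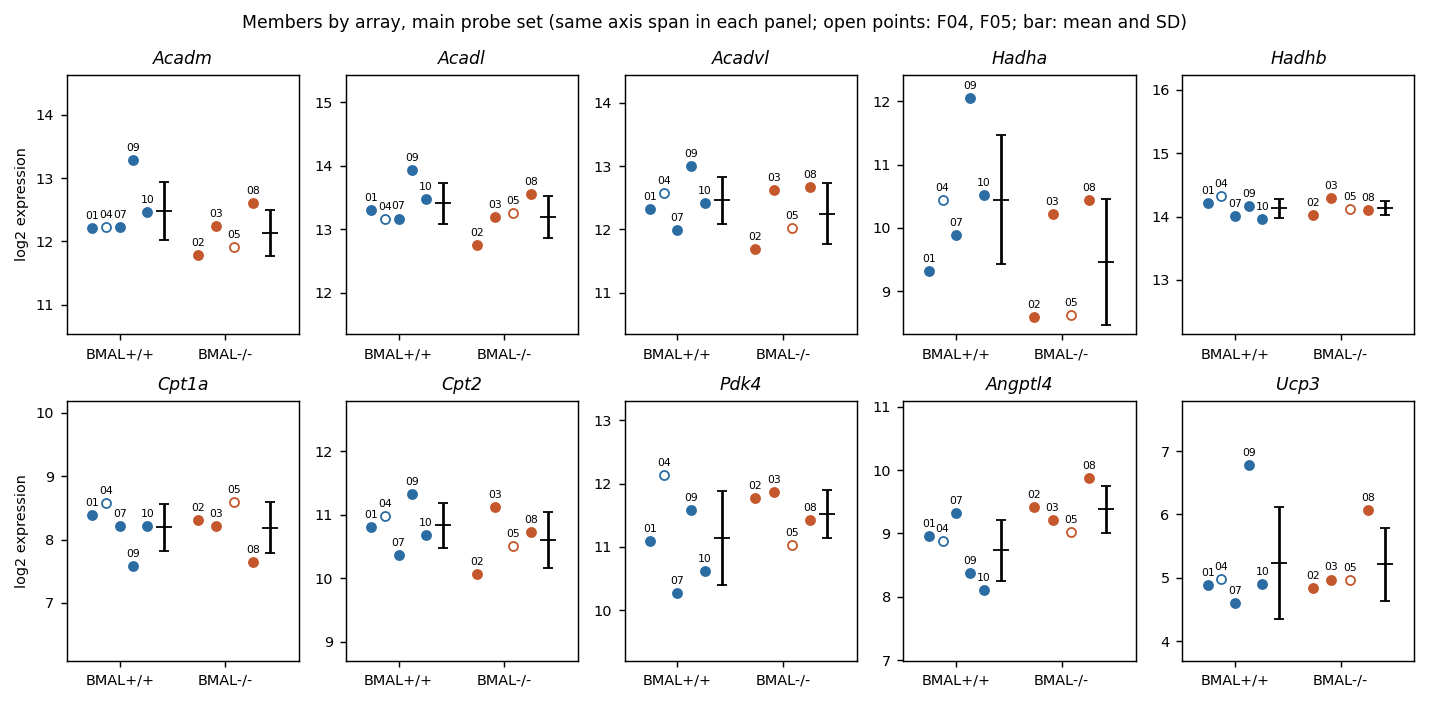
Log2 expression of the main probe set of each gene (vertical axis, the same span in each panel) on the 5 BMAL+/+ and 4 BMAL-/- arrays, which are labelled by number; open points are F04 and F05, and the black mark and bar beside each group are its mean and SD. The genotypes overlap in every panel, F09 is the highest array for 6 genes, and Hadhb spans only 0.36 units.

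**Figure D2:**
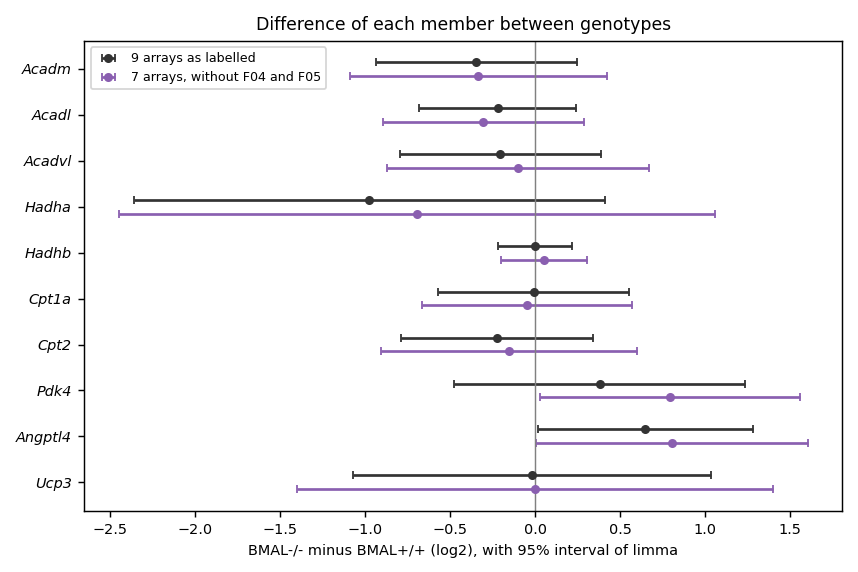
Difference between genotypes, BMAL-/- minus BMAL+/+ on the log2 scale (horizontal axis), for each gene over 9 arrays as labelled (black) and 7 arrays (purple), with the 95% interval of limma, unadjusted for the number of genes. Intervals lie above 0 for Angptl4 in both sets and for Pdk4 in the 7 arrays, and none of these passed after adjustment.

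The acyl-CoA dehydrogenases did not separate the genotypes. Acadm, the medium-chain enzyme, read 12.21 on F01, 12.23 on F04, 12.23 on F07, 13.28 on F09 and 12.46 on F10 in BMAL+/+, and 11.79 on F02, 12.24 on F03, 11.91 on F05 and 12.60 on F08 in BMAL-/-. F09 stood above all others, and the rest of the BMAL+/+ arrays lay inside the BMAL-/- range. The means were 12.48 ± 0.46 (SD, n = 5) and 12.14 ± 0.36 (SD, n = 4), a difference of -0.35 ± 0.26 (SE; 95% interval -0.94 to 0.25; limma adjusted p = 0.453).

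Acadl, the long-chain enzyme, read 13.30, 13.16, 13.17, 13.93 and 13.47 on F01, F04, F07, F09 and F10, and 12.75, 13.19, 13.26 and 13.55 on F02, F03, F05 and F08. Again F09 was highest and F02 lowest, with the other arrays interleaved. The difference was -0.22 ± 0.20 (SE; 95% interval -0.68 to 0.24; limma adjusted p = 0.538). Its other probe set read between 2.54 and 3.04, near the floor of the arrays, whose 20th percentiles lay between 2.38 and 2.45.

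Acadvl, the very-long-chain enzyme bound to the inner membrane, read 12.32, 12.57, 11.99, 13.00 and 12.41 on F01, F04, F07, F09 and F10, and 11.69, 12.61, 12.03 and 12.67 on F02, F03, F05 and F08. The spread within each genotype was wider than the distance between their means, 12.46 ± 0.37 (SD, n = 5) and 12.25 ± 0.48 (SD, n = 4). The difference was -0.21 ± 0.26 (SE; 95% interval -0.80 to 0.38; limma adjusted p = 0.652). Without F04 and F05 the differences of Acadm, Acadl and Acadvl were -0.34, -0.30 and -0.10, with limma adjusted p of 0.483, 0.415 and 0.843. Their sizes depended on single arrays: with 1 of the 9 left out, Acadm ran from -0.50 to -0.15, Acadl from -0.34 to -0.074 and Acadvl from -0.35 to -0.018.

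Hadha had the widest range of the 10 genes and Hadhb, on its main probe set, the narrowest. Hadha, the subunit that hydrates and dehydrogenates long-chain intermediates, read 9.33, 10.44, 9.89, 12.05 and 10.52 on F01, F04, F07, F09 and F10, and 8.59, 10.22, 8.62 and 10.43 on F02, F03, F05 and F08. Arrays F02 and F05 lay below every BMAL+/+ array, whereas F03 and F08 lay among them. The difference was -0.98 ± 0.61 (SE; 95% interval -2.36 to 0.41; limma adjusted p = 0.392), from 10.44 ± 1.02 (SD, n = 5) to 9.47 ± 0.996 (SD, n = 4). Without F04 and F05 it was -0.70 ± 0.74 (SE; limma adjusted p = 0.532). Single arrays carried much of this: the 9-array difference was -0.58 without F09, and the 7-array difference was -0.16 without F09 and -0.12 without F02.

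Hadhb, the thiolase subunit, read 14.22, 14.32, 14.002, 14.17 and 13.96 on F01, F04, F07, F09 and F10, and 14.02, 14.29, 14.12 and 14.11 on F02, F03, F05 and F08. The group means were 14.13 ± 0.15 (SD, n = 5) and 14.13 ± 0.11 (SD, n = 4), with a 95% interval of the difference from -0.22 to 0.22 (limma adjusted p = 0.999). This probe set lay close to the highest value in the table, 15.55, and its name marks it as one whose probes may also match other transcripts. The second probe set read 12.48, 12.93, 12.36, 13.39 and 12.57 in BMAL+/+ and 12.11, 12.96, 12.17 and 12.73 in BMAL-/-, F09 again highest and F02 lowest, a difference of -0.25 ± 0.26 (SE; limma adjusted p = 0.577). It spanned 1.28 units against 0.36 on the main one. The third, with a mean of 6.43, was lowest on F09, at 5.48, where the second was highest.

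On their main probe sets, the carnitine shuttle enzymes were likewise not separated by genotype. Cpt2, the inner-membrane transferase, read 10.81, 10.98, 10.36, 11.33 and 10.68 on F01, F04, F07, F09 and F10, and 10.07, 11.12, 10.51 and 10.72 on F02, F03, F05 and F08. Its order ran as that of Acadvl at both ends, F09 highest and F02 lowest. The difference was -0.23 ± 0.25 (SE; 95% interval -0.79 to 0.34; limma adjusted p = 0.606), and it ran from -0.40 to -0.048 with 1 array left out.

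Cpt1a, the liver-type outer-membrane transferase and the regulated entry step, gave different answers on its probe sets. On the main one it read 8.38, 8.58, 8.21, 7.59 and 8.21 on F01, F04, F07, F09 and F10, and 8.31, 8.21, 8.59 and 7.64 on F02, F03, F05 and F08, so that F09 and F08, high for most of the other enzymes, were its 2 lowest arrays. The difference there was -0.01 ± 0.25 (SE; 95% interval -0.57 to 0.55; limma adjusted p = 0.984). By their names, the main and the second probe set are both of a kind that may also match other transcripts. The second differed by -0.08.

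The third probe set of Cpt1a read 6.31, 6.31, 6.16, 6.84 and 6.99 on F01, F04, F07, F09 and F10, and 5.05, 4.89, 6.39 and 5.75 on F02, F03, F05 and F08. F02, F03 and F08 lay below every BMAL+/+ array and F05 lay among these. The difference was -1.004 ± 0.33 (SE; limma adjusted p = 0.37) as labelled and -1.35 ± 0.30 (SE; limma adjusted p = 0.208) without F04 and F05. In the 7 arrays the groups did not overlap on it, as on 2.59% of all 45037 probe sets in that direction. F04 read with the BMAL+/+ arrays and F05 with the same, so here F04 did not stand with the BMAL-/- arrays as it did at clock genes.

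**Figure D3:**
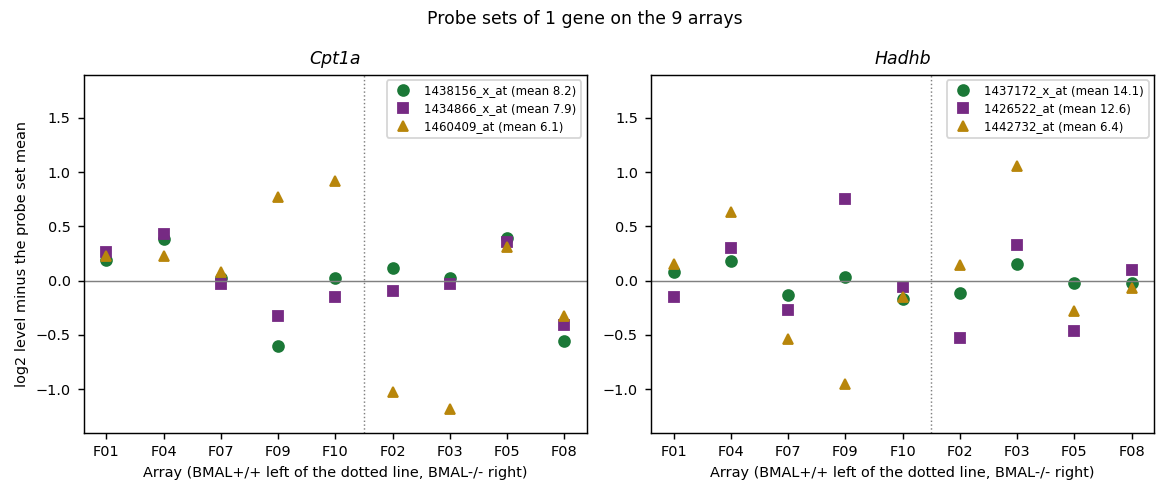
Log2 level minus each probe set's own mean (vertical axis) on the 9 arrays for the 3 probe sets of Cpt1a (left) and of Hadhb (right), named in the key with their means. The first and second probe sets of Cpt1a run together and the third, at 5.05 on F02 and 4.89 on F03, does not; the main probe set of Hadhb is nearly flat.

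Pdk4, the kinase that phosphorylates and switches off pyruvate dehydrogenase, was higher in BMAL-/- on average without passing. It read 11.09 on F01, 12.13 on F04, 10.28 on F07, 11.59 on F09 and 10.62 on F10 in BMAL+/+, and 11.77 on F02, 11.87 on F03, 11.02 on F05 and 11.42 on F08 in BMAL-/-. F04 was the highest of the 9 arrays and F05 the lowest of the BMAL-/- arrays, and without these the groups overlapped through F09 alone. The difference was 0.38 ± 0.38 (SE; 95% interval -0.48 to 1.23; limma adjusted p = 0.566) as labelled and 0.79 ± 0.32 (SE; 95% interval 0.03 to 1.56; limma adjusted p = 0.208) without F04 and F05, from 10.89 ± 0.57 (SD, n = 4) to 11.69 ± 0.24 (SD, n = 3). The size of the difference thus moved by over 1.5 times with these arrays, which were left out for their clock genes. Leaving out single arrays from the 9 gave differences from 0.16 without F07 to 0.63 without F04.

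Angptl4, a secreted inhibitor of lipoprotein lipase, was higher on average in BMAL-/- in both sets of arrays, also without passing. It read 8.97, 8.88, 9.32, 8.38 and 8.10 on F01, F04, F07, F09 and F10, and 9.41, 9.21, 9.02 and 9.88 on F02, F03, F05 and F08. F07 was the only BMAL+/+ array that reached into the BMAL-/- range. The difference was 0.65 ± 0.28 (SE; 95% interval 0.02 to 1.28; limma adjusted p = 0.37) as labelled, from 8.73 ± 0.49 (SD, n = 5) to 9.38 ± 0.37 (SD, n = 4), and 0.81 ± 0.34 (SE; limma adjusted p = 0.208) without F04 and F05. With array weights the difference as labelled was 0.18. Its other probe set read between 2.74 and 2.95, near the floor, and the mean of both probe sets differed by 0.37.

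Ucp3, an uncoupling protein family member of muscle and brown fat, was set apart by array and not by genotype. It read 4.89, 4.97, 4.60, 6.78 and 4.90 on F01, F04, F07, F09 and F10, and 4.84, 4.97, 4.97 and 6.07 on F02, F03, F05 and F08. F09 in one genotype and F08 in the other stood above the remaining arrays, which lay between 4.60 and 4.97. The difference was -0.02 ± 0.46 (SE; 95% interval -1.07 to 1.04; limma adjusted p = 0.984). The other probe set repeated the 2 high arrays, with 5.34 on F09 and 4.79 on F08 against 3.38 to 4.18 elsewhere.

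Acadm, Acadl, Acadvl, Hadha and Cpt2 shared their highest and lowest arrays, whereas Cpt1a and the main probe set of Hadhb did not. F09 was the highest array for 5 of the 7 enzymes (Acadm, Acadl, Acadvl, Hadha and Cpt2) and F02 the lowest for the same 5. Relations were computed over the 9 arrays for all 105 pairs of the 15 brighter probe sets, by an exact permutation test with Benjamini-Hochberg adjustment over the pairs, and 19 pairs passed, 18 of them with a positive r. Arrays of both genotypes enter these values, which share any difference in tissue makeup between arrays.

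Acadm and Hadha had r = 0.94 and Spearman's rho = 0.90 (exact permutation p = 8.8e-05 for r and 0.00211 for rho, adjusted p = 0.00559 and 0.0553), and r = 0.82 without F02 and F09. Acadvl and Cpt2 had r = 0.94 and rho = 0.87 (exact permutation p = 0.000367 and 0.00451, adjusted p = 0.00608 and 0.0592), and r = 0.82 without the same 2 arrays. Hadha followed the second probe set of its neighbour Hadhb, with r = 0.92 and rho = 0.83 (exact permutation p = 0.000626 and 0.00827, adjusted p = 0.0073 and 0.0725), and r = 0.77 without F02 and F09. On ranks, none of these 3 pairs passed after adjustment. With each genotype centred on its own mean, r was 0.93, 0.93 and 0.92 for the same pairs. The second probe set of Hadhb followed Acadvl (r = 0.95, rho = 0.93) and Cpt2 (r = 0.93, rho = 0.93) more closely than it followed Hadha. Both of these relations also passed on ranks (exact permutation adjusted p = 0.0394 each). So did Acadvl with the main probe set of Ucp3 (rho = 0.92, exact permutation adjusted p = 0.0459), whose r of 0.74 did not pass (adjusted p = 0.0717). No other pair passed on ranks. Hadha did not follow the other probe sets of Hadhb: with the main one r was 0.21 and rho 0.10 (exact permutation p = 0.584 and 0.81, adjusted p = 0.748 and 0.877), and with the third r was -0.27 and rho -0.20 (exact permutation p = 0.477 and 0.613, adjusted p = 0.648 and 0.826).

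Cpt1a, on its main probe set, ran against Acadm, with r = -0.82 and rho = -0.80 (exact permutation p = 0.0052 and 0.0122, adjusted p = 0.0321 and 0.0807), and r = -0.83 without F02 and F09. Acadm and Ucp3 had r = 0.86 and rho = 0.69 (exact permutation p = 0.00628 and 0.047, adjusted p = 0.0361 and 0.197), and r = 0.61 without F02 and F09. The arrays left out were those farthest from the median of the first gene named, here Acadm. F08, with F09 the most extreme array of both Cpt1a and Ucp3, therefore stayed in. How far these relations rest on F08 and F09 together was not tested. Between Cpt1a and Ucp3 themselves, r was -0.85, and 0.50 without F08 and F09. Between the 2 brighter probe sets of Cpt1a r was 0.91 and rho 0.83 (exact permutation p = 0.000463 and 0.00829, adjusted p = 0.00608 and 0.0725), and r was 0.93 without F08 and F09. The main and the third probe set of Cpt1a had r = -0.07 and rho = 0.18 (exact permutation p = 0.873 and 0.653, adjusted p = 0.916 and 0.826). The probe sets of this gene thus did not rank the arrays alike. With Acadm, r was -0.60 for the second and 0.49 for the third (exact permutation adjusted p = 0.216 and 0.363). The relation of Cpt1a to Acadm therefore holds for its main probe set only.

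Some markers of brown fat were high on the same arrays as these genes, and others were not. The mean of the 10 brown adipocyte markers was highest on F09, at 10.77, and next on F08, at 10.18, the 2 arrays with the highest Ucp3, Acadm, Acadl and Acadvl; the other 7 arrays lay between 9.20 and 9.87. Ucp1 read 14.68 on F09, 14.32 on F08 and lowest, at 13.10, on F02. Cidea, a lipid droplet protein of brown fat, read 14.04 on F09, 13.69 on F08 and 11.47, again lowest, on F02. Of the 10 markers, 6 were highest on F09, but only these 2 were lowest on F02, and the list mean was lowest on F07. Against that order, Prdm16, a regulator of brown fat identity, was lowest on F09, at 7.87, and Dio2, a thyroid hormone deiodinase, and Ppargc1a were highest on F02, at 8.83 and 7.64. By genotype the brown adipocyte mean spanned 9.20 to 10.77 in BMAL+/+ and 9.70 to 10.18 in BMAL-/-, and the mean of the 8 measured adipocyte markers spanned 10.65 to 11.83 and 10.33 to 11.38. This adipocyte mean was highest on F09 and lowest on F02. Of the 8 adipocyte markers, 5 were highest on F09 and 4 lowest on F02, while Lep was lowest on F09, at 5.97. The part of fat content in the array-to-array differences was not tested.

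Skeletal muscle markers were ordered differently over the arrays, whereas cardiac markers shared part of the order of these genes. The 13 skeletal muscle markers had a mean of 4.17 on F01, with Tnnt3 at 3.23 and Mylpf at 2.80 near the floor, yet on that array Acadm, Acadl, Acadvl and Cpt2 were neither the lowest nor the highest of the 9. On F07, where the skeletal muscle markers had their highest mean, 10.94, Pdk4 and Ucp3 had their lowest levels. On F08, with the next highest mean, 10.67, 8 of the 13 markers were at their highest, and Ucp3 read 6.07. The 10 cardiac markers had means from 5.32 to 9.79 in BMAL+/+ and from 5.15 to 8.30 in BMAL-/-, with F07 and F09 highest and F02 lowest, so that cardiac markers were also high on F09 and low on F02. Their part was not tested.

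**Figure D4:**
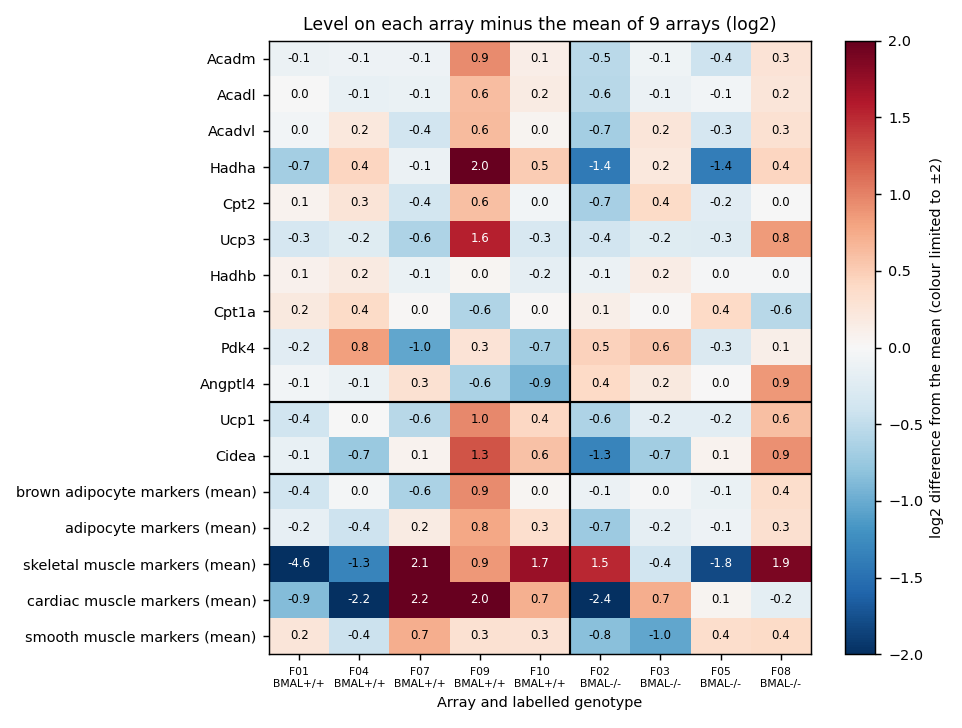
Level on each array minus the mean over the 9 arrays (colour and printed number, log2; colour limited to 2 units either side of 0) for the 10 genes (top), for Ucp1 and Cidea (middle) and for the means of 5 marker lists (bottom); columns are arrays with their labelled genotype. The upper 6 genes, Ucp1 and Cidea are high on F09 and mostly low on F02, while the skeletal muscle markers are lowest on F01.

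The genes whose main probe set followed each target most closely were listed by Pearson r over the 9 arrays, among 9086 brighter genes and without a test. For the mean of the 7 enzymes these were Lrpprc (r = 0.98), Crat (r = 0.98), Ppp2r5a (r = 0.96), Gmps (r = 0.96) and Dld (r = 0.96), of which Crat is carnitine acetyltransferase and Dld a subunit of the pyruvate dehydrogenase complex. For Pdk4 they were Eef1akmt2 (r = 0.97), Gpam (r = 0.96), Psmg1 (r = 0.96), 1700037H04Rik (r = 0.95) and Zfyve26 (r = 0.95). For Angptl4 they were Sac3d1 (r = 0.96), Bik (r = 0.92), Lrpap1 (r = 0.89), Scarb1 (r = 0.88) and G0s2 (r = 0.88), and for Ucp3 Thnsl1, Glrx, Ankra2, Bud23 and D6Wsu163e (r = 0.97 each).

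Other enzymes of the pathway gave no call either. Of the 15 further mitochondrial beta-oxidation genes, 5 were higher and 10 lower in BMAL-/- as labelled, none past the threshold, with a median difference of -0.11, and 0.01 without F04 and F05. Acad11, an acyl-CoA dehydrogenase family member, had the smallest p, at -0.58 ± 0.24 (SE; limma adjusted p = 0.37), and in the 7 arrays its groups did not overlap (-0.76 ± 0.27, SE; limma adjusted p = 0.208). Echs1, the short-chain enoyl-CoA hydratase, differed by -0.82 ± 0.64 (SE) and was highest on F09, at 11.98, and lowest on F02, at 8.50. Acads, the short-chain dehydrogenase, differed by -0.22 and Eci2, an isomerase for unsaturated chains, by -0.15.

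Of the 12 measured genes of fatty acid activation and the carnitine shuttle, 6 were higher and 6 lower, with a median of -0.01, and 0.24 without F04 and F05. Acsl4, an acyl-CoA synthetase, differed by 0.23, Cpt1c, the brain-type transferase, by -0.45, Crat by -0.40 and Slc25a20, the carnitine-acylcarnitine carrier, by 0.28, with limma adjusted p from 0.399 to 0.556. Of the 11 measured peroxisomal genes, 5 were higher and 6 lower, with a median of -0.03. Acaa1a, a peroxisomal thiolase, differed by 0.65 ± 0.30 (SE; limma adjusted p = 0.37), Abcd3, a peroxisomal transporter, by -0.30, Hsd17b4, the multifunctional enzyme, by 0.25 and Acaa1b by 0.42. None of these lists had a passing gene in either set of arrays.

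Of the 13 genes of fatty acid uptake and lipolysis, 3 were higher and 10 lower as labelled, with a median of -0.19, and -0.34 without F04 and F05. Cd36, a fatty acid transporter, differed by -0.33, Lipe, hormone-sensitive lipase, by -0.80, Mgll, monoacylglycerol lipase, by -0.46, and Lpl, the lipase that Angptl4 inhibits, by -0.19, with limma adjusted p from 0.406 to 0.533. In the 7 arrays the groups did not overlap at Lpl (-0.39 ± 0.14, SE; limma adjusted p = 0.208), where the sign was opposite to that of Angptl4. Nor did they at Fabp5, which was higher in BMAL-/- (0.80 ± 0.13, SE; limma adjusted p = 0.208) and is named after its values were seen. Of all genes, 17.5% did not overlap in these arrays. Lipe is abundant in adipocytes, and its highest and lowest arrays were F09, at 10.11, and F02, at 7.13.

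Among the regulators, 10 of 18 measured genes of the PPAR and PGC-1 list were higher and 8 lower as labelled, with a median of 0.01, and none passed. Ppargc1a, the coactivator PGC-1 alpha, read 6.58, 7.404, 6.21, 6.97 and 6.20 on F01, F04, F07, F09 and F10, and 7.64, 7.52, 7.08 and 7.22 on F02, F03, F05 and F08. Only F04 among BMAL+/+ reached into the BMAL-/- range, and without F04 and F05 the groups did not overlap (0.97 ± 0.24, SE; limma adjusted p = 0.208), as at 17.5% of genes. As labelled its difference was 0.70 ± 0.27 (SE; limma adjusted p = 0.37).

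Nrip1, a corepressor of nuclear receptors that restrains oxidative genes in fat, read 8.52, 7.41, 8.55, 8.33 and 8.01 on F01, F04, F07, F09 and F10, and 6.54, 7.34, 8.36 and 7.57 on F02, F03, F05 and F08. F04 lay with most BMAL-/- arrays and F05 with most BMAL+/+ arrays, the arrangement seen at Npas2. Its difference was -0.71 ± 0.38 (SE; limma adjusted p = 0.37) as labelled and -1.20 ± 0.28 (SE; limma adjusted p = 0.208) without them. Klf15, a fasting and glucocorticoid-responsive factor, differed by -0.75 and -1.14, and Foxo1, which insulin inactivates, by -0.26 and -0.38. In the 7 arrays, 3 genes of the list were higher without overlap, Ppargc1a, Ppargc1b (1.13) and Rxrg (0.68), and 3 were lower, Nrip1, Klf15 and Foxo1. Over all 18193 genes, 2615 were higher and 570 lower without overlap. Ppargc1b, a coactivator like Ppargc1a, and Rxrg, a partner of PPARs, are named after their values were seen.

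Of the 14 measured ketone body and other fasting or PPAR-responsive genes, 8 were higher and 6 lower as labelled, with a median of 0.05, and 10 were higher and 4 lower without F04 and F05, with a median of 0.22. G0s2, an inhibitor of adipose triglyceride lipase, read 11.87, 12.22, 12.30, 11.84 and 11.80 on F01, F04, F07, F09 and F10, and 12.38, 12.35, 12.28 and 12.47 on F02, F03, F05 and F08. Only F07 reached the BMAL-/- range, and the difference was 0.36 ± 0.13 (SE; limma adjusted p = 0.37). Plin5, a lipid droplet protein of oxidative tissue, differed by 0.65 ± 0.43 (SE), and by 1.03 ± 0.39 (SE) without F04 and F05, with limma adjusted p of 0.407 and 0.208. Acat1, the mitochondrial thiolase of ketone metabolism, differed by 0.33, and Cyp4a14 lay near the floor, at 2.56 and 2.61.

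The other genes around pyruvate dehydrogenase give Pdk4 its setting. Of 10, 4 were higher and 6 lower as labelled, with a median of -0.15, and none passed. Pdk1, another kinase of the complex, read 9.62, 10.92, 9.40, 9.77 and 9.56 on F01, F04, F07, F09 and F10, and 10.51, 10.91, 9.60 and 10.25 on F02, F03, F05 and F08. F04, labelled BMAL+/+, lay with F02, F03 and F08, and F05, labelled BMAL-/-, lay with F01, F07, F09 and F10, so that the difference was 0.46 ± 0.36 (SE; limma adjusted p = 0.468) as labelled and 0.97 ± 0.19 (SE; limma adjusted p = 0.208) without them. Pdk2, a further kinase, differed by -1.26 ± 0.84 (SE) and ran from 4.73 on F02 to 9.31 on F09. Pdha1, the catalytic subunit, differed by -0.18 and Pdp2, a phosphatase that opposes the kinases, by 0.27.

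Of the 4 measured relatives of Ucp3, Ucp1 differed by -0.19 ± 0.35 (SE; limma adjusted p = 0.76), Slc25a30 by -0.23 and Slc25a14 by 0.23. Slc25a27 read 4.05 in BMAL+/+ and 4.06 in BMAL-/-. None passed.

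**Figure D5:**
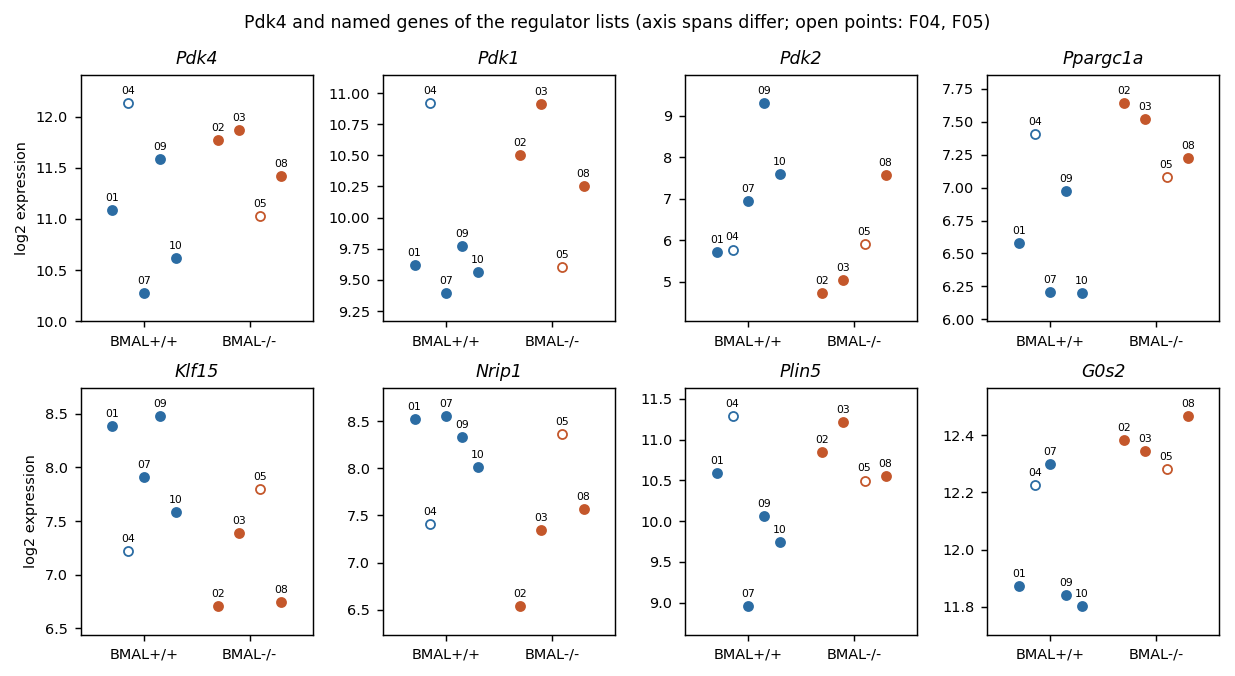
Log2 expression (vertical axis, spans differ between panels) of Pdk4 and 7 named genes of the regulator and fasting lists on the 5 BMAL+/+ and 4 BMAL-/- arrays, labelled by number, with F04 and F05 as open points. F04 reads 12.13 for Pdk4 and 10.92 for Pdk1, the highest of all arrays in both, while F05 reads 9.60 for Pdk1, within the span of BMAL+/+ without F04.

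Pdk4 and Angptl4 respond to glucocorticoids as well as to fasting in many tissues. The 10 glucocorticoid-responsive markers had means from 7.74 to 8.65 in BMAL+/+ and from 7.51 to 8.25 in BMAL-/-, with F09 highest and F08 lowest. Without F04 and F05 these means did not overlap, at 8.002 to 8.65 and 7.51 to 7.73. In those arrays the groups did not overlap at 17.5% of all genes. Fkbp5 differed by -2.52 (limma adjusted p = 0.121) and Mt1 by -1.60 (limma adjusted p = 0.208), both lower in BMAL-/-. Cdkn1a, by contrast, was higher in BMAL-/- by 1.42 without overlap (limma adjusted p = 0.208), and Sgk1 was higher by 0.46. The other markers were lower, with Per1, also a clock gene, at -0.11. The part of any hormone difference was not tested.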

How the data were processed

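The deposited values are log2 expression per probe set, as the authors made them. GCRMA and MAS5 appear in the submitters' processing notes; which step each served, and any version, is unknown here. A dense floor between about 2 and 3 compresses dim transcripts. Values were used as deposited. The 64 control probe sets were left out, and 45037 were tested. Of these, 34945 pair with 1 gene, 932 with several (never named) and 9160 with none listed. Symbols follow RefSeq (GRCm38.p6). The number of arrays limits the precision.

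For each probe set, genotype was fitted by limma (version 3.58.1, run under R 4.3.3) with lmFit and eBayes with a mean-variance trend, 2-sided, with Benjamini-Hochberg adjustment over all 45037 probe sets and a threshold of 0.05. Members, gene lists, the set of 7 arrays and the tests were chosen with earlier results of these data known. Named were all 10 members and, of each list, any passing gene and the 4 of smallest p as labelled. Other genes are named as markers of tissue makeup or as genes of like pattern (5 per target). Some listed genes are not reported here. Alternatives were quantile normalization, centring, array weights, no trend, the F-test, a brightness filter, gene means over probe sets, F01 moved, and single arrays left out. Fits were tested on simulated data. Correlations were tested by enumerating every ordering of the 9 arrays.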

Additional observations from a re-analysis of the deposited data

Results flagged for a closer look

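Gaps between an array and the rest of its genotype were tested in 20 groups, the 10 genes in each genotype, and 3 stood out by Dixon's criterion, where chance gives about 1 group in 20. Acadm on F09, at 13.28, lay above the 12.21 to 12.46 of the other BMAL+/+ arrays. Ucp3 on F09, at 6.78, lay above the 4.60 to 4.97 of the others in BMAL+/+. Ucp3 on F08, at 6.07, lay above the 4.84 to 4.97 of the others in BMAL-/-. Both arrays had the highest means of the brown adipocyte markers, 10.77 on F09 and 10.18 on F08. Of the 13 skeletal muscle markers, 8 were highest on F08, with a list mean of 10.67, and 0 on F09, with 9.66. The part of fat or muscle content was not tested.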

How the results depend on the processing

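No member passed the threshold under any alternative run. Of 320 member differences recomputed, 286 kept their direction and 34 changed it, and the cause was not tested. As labelled, quantile normalization gave -0.0046 for Hadhb, 0.041 for Cpt1a and 0.038 for Ucp3; centring gave -0.040 for Hadhb; array weights gave 0.27 for Cpt1a, 0.18 for Ucp3 and a median of 0.016 for the other uncoupling proteins; F01 moved to BMAL-/- gave 0.077 for Cpt1a. Single arrays left out gave -0.052 to 0.046 for Hadhb, -0.16 to 0.17 for Cpt1a, -0.30 to 0.37 for Ucp3 and medians of -0.13 to 0.053 for the other uncoupling proteins.

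The number of probe sets that passed was 0 as labelled and 4 without F04 and F05. From those 7 arrays it was 2 with quantile normalization, 15448 with array weights, and 2 to 16445 with 1 more array left out, the highest without F08. In the 7 arrays, quantile normalization gave 0.025 for Cpt1a and 0.084 for Ucp3, and centring -0.0034 for Hadhb. Array weights gave 0.020 for Acadvl, 0.040 for Cpt1a, 0.090 for Cpt2 and 0.050 for Ucp3. They also gave passing genes in the lists of uptake and lipolysis (2 of 13), ketone and fasting genes (2 of 14) and peroxisomal oxidation (2 of 11). In PPAR and PGC-1 5 of 18 passed, and in pyruvate dehydrogenase 3 of 10. With these weights 15448 of all 45037 probe sets passed, so the counts do not set the lists apart. Leaving out 1 more array gave -0.28 to 0.22 for Acadvl, -0.023 to 0.11 for Hadhb, -0.22 to 0.16 for Cpt1a, -0.40 to 0.13 for Cpt2 and -0.39 to 0.50 for Ucp3. It gave medians of 0.067 to 0.30 for ketone and fasting genes (0.40 with the brightness filter) and -0.21 to 0.059 for the other uncoupling proteins. Passing genes ran from 0 to 4 for uptake and lipolysis and 0 to 1 for ketone and fasting genes. They ran from 0 to 3 for PPAR and PGC-1 and 0 to 2 for pyruvate dehydrogenase. The upper ends were without F08, where 16445 of all 45037 probe sets passed, so they do not set the lists apart either. Scanner files were not used here, so background correction was not varied. No paired analysis was possible because the groups share no replicate numbers.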
